A study of Mus musculus with 8 samples.

Results

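Transcripts of 10 MAP kinase feedback inhibitor genes, 7 dual-specificity phosphatases (Dusp1, Dusp4, Dusp5, Dusp6, Dusp10, Dusp14 and Dusp16) and 3 Sprouty genes (Spry1, Spry2 and Spry4), were compared between ADAM12+ and ADAM12– stromal cells of mouse melanomas. In ADAM12+ (GFP+) cells Dusp4 and Dusp6 fell and Dusp1 and Spry1 rose, and the other 6 members did not pass the test. Dusp4 was 7.23-fold and Dusp6 3.22-fold lower in GFP+ cells, whereas Dusp1 was 1.54-fold and Spry1 2.19-fold higher. Without the replicate number in the model, the rises were less firm than the falls. The edgeR test called neither (edgeR adjusted p = 0.0651 and 0.0956), and each was lost in 4 of 8 DESeq2 fits that left out 1 library. With the replicate number as a block both were called (DESeq2 adjusted p = 2.1e-05 and 0.0105), and so were Spry2 and Spry4. All 10 genes of a melanocyte list were also lower in GFP+ cells (median log2 fold change -2.99, beside -2.85 for Dusp4), and their part in the falls was not tested. The 10 genes were taken by name from the 53801 genes of the count table, and each name occurred in 1 row.

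MO5 tumors, which are B16 melanomas that express ovalbumin, had been grown under the skin of ADAM12-GFP mice, transgenic animals in which an artificial chromosome carrying Adam12 sequences drives GFP. Both groups therefore came from the same kind of reporter mice and the same tumor model, and neither received a drug. Stromal cells that carried PDGFRα and PDPN and lacked the leukocyte marker CD45 and the endothelial marker CD31 were sorted into GFP+ and GFP- fractions, with 4 RNA-seq libraries in each. Per the study's methods, sample numbers stand for mice unless otherwise stated, but the labels do not tie a library to an animal or say whether animals were pooled, so that p-values measure the spread between these libraries.

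MAP kinases relay signals from growth factor receptors and from stress to the nucleus. In the ERK branch, receptor tyrosine kinases activate Ras, Raf and MEK in turn, and active ERK induces genes whose products switch the pathway off again. Dual-specificity phosphatases of the MAP kinase phosphatase (MKP) class remove phosphate from both the threonine and the tyrosine that activate a MAP kinase. Sprouty proteins act upstream of ERK, between the receptor and Raf.

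Total counts ran from 7868787 to 31666734 in 7 libraries and came to 883144 in GFP- replicate 3, where 1 read was worth 11.0 normalised counts. A normalised count is the number of reads of a gene divided by the size factor of the library, a scale that evens out sequencing depth. Adam12 itself had 1833 to 2938 normalised counts in GFP+ and 920 to 1693 in GFP- libraries, higher in the sorted GFP+ fraction without overlap but present in both. The gate's own marker Pdgfra had 12812 to 16246 and 4706 to 7054 normalised counts, and Pdpn 2613 to 3848 and 1609 to 2527. Ptprc, which encodes CD45, was present at 119 to 1383 normalised counts in GFP+ and 137 to 1703 in GFP- libraries, and Pecam1, which encodes CD31, at 141 to 323 and 81.0 to 516, although both had been excluded by the sort.

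Upstream sequence is shown for the 3 members that passed the test and have an entry in the RefSeq promoter table (Dusp1, Dusp6 and Spry1), and for the element that sets Dusp5 apart. RefSeq entries (GRCm38.p6) were found for 8 of the 10 members, all but Dusp4 and Spry4. Motifs were searched on both strands in the 250 bases before the start site, and capitals mark the cyclic AMP response element (CRE, TGACGTCA), its short form (TGACG) and the CArG box bound by serum response factor. All are written 5′ to 3′ on the strand of the gene, and distances are counted from the RefSeq start site, which for Dusp1 and Dusp5 lies inside the GENCODE gene span given further on.
Dusp1, chr17:26508523-26508722, minus strand, ending 51 bases before the start: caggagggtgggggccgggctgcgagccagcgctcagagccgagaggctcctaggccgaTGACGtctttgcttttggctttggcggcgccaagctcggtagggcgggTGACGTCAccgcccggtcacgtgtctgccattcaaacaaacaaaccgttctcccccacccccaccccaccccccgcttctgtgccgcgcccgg
Dusp5, chr19:53529058-53529087, plus strand, ending 58 bases before the start: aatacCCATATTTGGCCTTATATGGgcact
Dusp6, chr10:99262981-99263230, plus strand, ending at the start: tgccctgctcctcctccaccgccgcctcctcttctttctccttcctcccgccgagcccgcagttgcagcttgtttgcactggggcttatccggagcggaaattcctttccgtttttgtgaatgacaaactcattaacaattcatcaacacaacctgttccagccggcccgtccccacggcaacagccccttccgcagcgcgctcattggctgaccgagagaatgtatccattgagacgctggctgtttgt
Spry1, chr3:37639697-37639946, plus strand, ending at the start: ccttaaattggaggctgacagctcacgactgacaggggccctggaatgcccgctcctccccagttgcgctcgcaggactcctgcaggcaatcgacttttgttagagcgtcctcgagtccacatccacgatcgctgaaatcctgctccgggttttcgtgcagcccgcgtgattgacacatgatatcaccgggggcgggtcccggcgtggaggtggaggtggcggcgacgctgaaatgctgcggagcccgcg

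The Dusp1 window held a full CRE, 143 to 136 bases before the start, and a further short form at 191 to 187 bases. A full CRE was present in 1.55% of 32851 promoter windows, and among the 8 members with a window in Dusp1 alone. The short form, which each full CRE also contains, was found in 3 members (Dusp1, Dusp5 and Dusp16) and in 17.8% of all windows. Dusp5 had a pair of adjoining CArG boxes, at 82 to 73 and 72 to 63 bases, and a CArG box, single or paired, was found in 1.47% of windows and in none of the other 7 members searched. The AP-1 motif (TGANTCA, 6.75% of all windows), the ETS motif (CCGGAAG, 6.91%) and the TATA motif (TATAAA, 12.4%) had no match in the 8 members, and the GC box (GGGCGG, 32.7%) was found in 6 of them. None of the capitalised motifs lay in the windows of Dusp6 and Spry1, the former lower and the latter higher in GFP+ cells. Coverage or binding at these sites was not measured here.

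The members were next compared between the groups by the DESeq2 Wald test, in which a gene was called at a Benjamini-Hochberg adjusted p under 0.05 over 15283 genes. All 10 members received an adjusted p. Of these, 2 were called higher in GFP+ cells, beside 4.66% of all tested genes, and 2 were called lower, beside 4.76%. The edgeR quasi-likelihood test, which made fewer calls, called 0 members higher (2.83% of its 14323 genes; 5 at an unadjusted p under 0.05) and 2 lower (2.28%), and the 2 were Dusp4 and Dusp6. Every GFP+ library lay above every GFP- library for 3 members, the 3 Sprouty genes, beside 6.37% of tested genes, and below for 1 member, Dusp4, beside 5.95%. Over the 10 members the log2 fold changes ran from -2.85 to 1.13 with a median of 0.29, and the median of all tested genes was -0.0082.

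**Figure D1:**
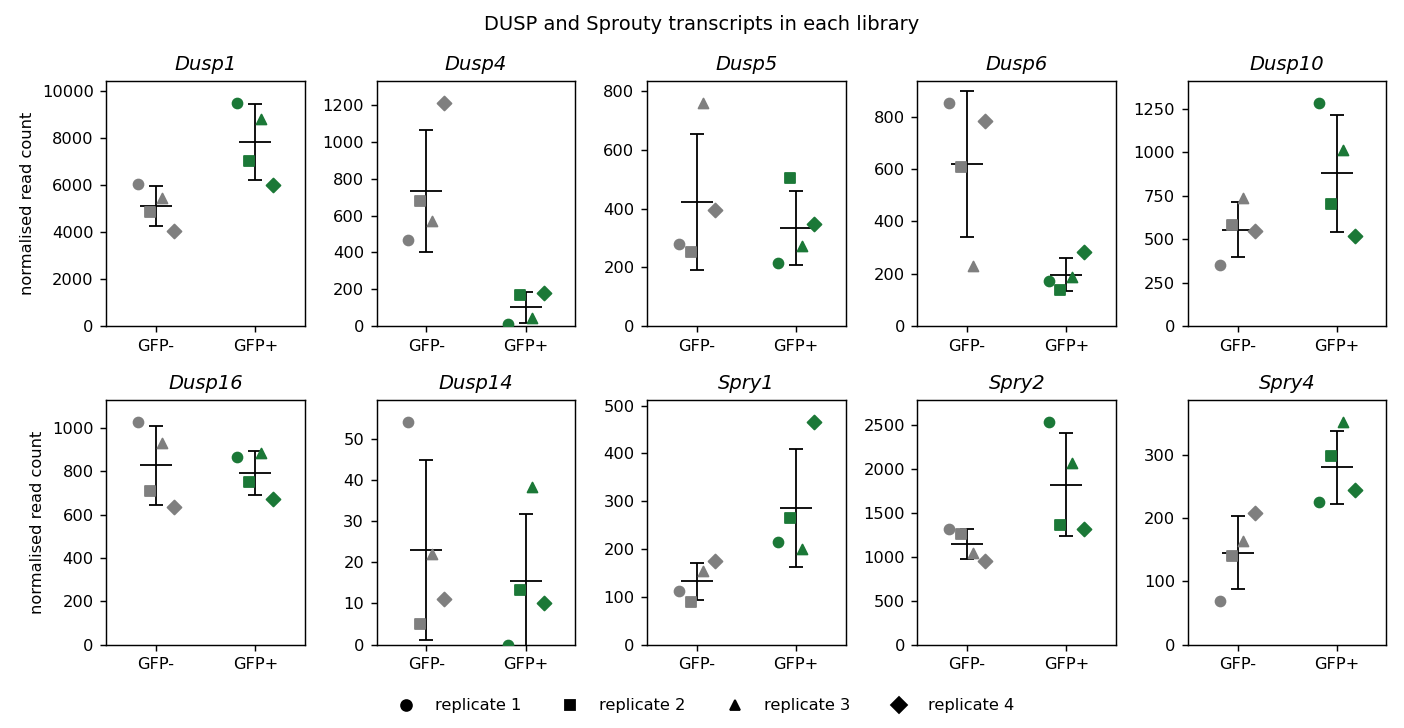
Normalised read count (y axis, linear from 0, a separate scale for each gene) of the 10 members in the GFP- (gray) and GFP+ (green) libraries, with the marker shape giving the replicate and the bar the mean ± SD (n = 4). Dusp4 reached at most 179 in GFP+ libraries and was at least 469 in GFP- libraries, and the 3 Sprouty genes did not overlap between the groups in the opposite direction.

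Among the members, Dusp1, Dusp4 and Dusp5 encode nuclear, inducible phosphatases. Dusp1 (ENSMUSG00000024190, chromosome 17, 26505590 to 26562128, minus strand, GRCm38) is an immediate early gene whose product acts on p38 and JNK as well as ERK. Its normalised counts were 6063, 4847, 5461 and 4049 in GFP- replicates 1 to 4 and 9494, 7051, 8828 and 6001 in GFP+ replicates 1 to 4. Only the lowest GFP+ library (replicate 4) and the highest GFP- library (replicate 1) overlapped. The mean rose from 5105 ± 861 (SD, n = 4) to 7844 ± 1604 (SD, n = 4), at a fitted log2 fold change of 0.62 (95% interval 0.22 to 1.02, SE 0.20) and a DESeq2 adjusted p of 0.0289. The edgeR adjusted p was 0.0651. The DESeq2 call was lost without replicate 2 or 4 of GFP- (adjusted p = 0.102 and 0.109) and without replicate 1 or 3 of GFP+ (0.0936 and 0.131). The annotation places other genes within the span of Dusp1 on both strands (Ergic1 among them), and reads shared with those on the same strand were not resolved.

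Dusp4 (ENSMUSG00000031530, chromosome 8, 34807297 to 34819894, plus strand), whose product acts on ERK and JNK in the nucleus, went the other way. Its normalised counts were 469, 682, 571 and 1212 in GFP- replicates 1 to 4 and 12.5, 169.9, 43.0 and 179 in GFP+ replicates 1 to 4. The groups did not overlap, but the GFP+ libraries differed widely among themselves, with replicates 1 and 3 (9 and 56 reads) far below replicates 2 and 4 (406 and 534 reads). The mean fell from 734 ± 330 (SD, n = 4) to 101 ± 85.7 (SD, n = 4), at a fitted log2 fold change of -2.85 (95% interval -4.41 to -1.29, SE 0.80) and a DESeq2 adjusted p of 0.0067. The edgeR adjusted p was 0.0187, and the gene was called in all 8 DESeq2 fits that each left out 1 library.

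Dusp5 (ENSMUSG00000034765, chromosome 19, 53529109 to 53542431, plus strand) encodes a nuclear phosphatase specific to ERK. Its normalised counts were 281, 253, 758 and 396 in GFP- replicates 1 to 4 and 214, 505, 273 and 346 in GFP+ replicates 1 to 4. The groups overlapped, and the highest value came from the shallow GFP- replicate 3, where it stood for 69 reads. The log2 fold change was -0.29 (95% interval -1.05 to 0.47, SE 0.39; DESeq2 adjusted p = 0.754). Without GFP- replicate 3 it became 0.11.

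Dusp6 (ENSMUSG00000019960, chromosome 10, 99263231 to 99267489, plus strand) encodes a cytoplasmic phosphatase specific to ERK, the only such gene among the members. Its normalised counts were 851, 608, 231 and 784 in GFP- replicates 1 to 4 and 172, 136, 187 and 284 in GFP+ replicates 1 to 4. The groups overlapped through GFP- replicate 3 alone, in which the gene had 21 reads. The mean fell from 618 ± 278 (SD, n = 4) to 195 ± 63.0 (SD, n = 4), at a fitted log2 fold change of -1.69 (95% interval -2.42 to -0.95, SE 0.37) and a DESeq2 adjusted p of 0.00027. The edgeR adjusted p was 0.0152, and the gene was called in all 8 fits with 1 library left out.

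The nuclear members and the cytoplasmic Dusp6 were then set against each other within each library, as the log2 ratio of their normalised counts with a pseudocount of 1. In total 6 pairs of members were compared with a two-sided exact permutation test on all 70 divisions of the libraries, for which the smallest possible p is 0.0286. The Dusp1 to Dusp6 log2 ratio averaged 3.19 ± 0.95 (SD, n = 4) among GFP- libraries and 5.35 ± 0.64 (SD, n = 4) among GFP+ libraries, a difference of 2.16 with an exact p of 0.0571 (adjusted over the 6 pairs, 0.286). Dusp4 to Dusp6 differed by -1.84 (exact p = 0.143, adjusted 0.286) and Dusp5 to Dusp6 by 1.29 (exact p = 0.143, adjusted 0.286). Since 4 of the 6 pairs would have to reach the smallest possible p for any adjusted p to fall under 0.05, the adjusted values say little on whether the members of a pair changed unequally. In the DESeq2 fit the 95% intervals of Dusp1 (0.22 to 1.02) and Dusp6 (-2.42 to -0.95) lay on opposite sides of 0. These intervals each describe 1 gene and do not test the difference between the 2. With size factors from fibroblast markers, given below, Dusp1 was at -0.30.

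Dusp10 and Dusp16 encode phosphatases that prefer JNK and p38 over ERK, and neither was called. Dusp10 (ENSMUSG00000039384, chromosome 1, 184013302 to 184075636, plus strand) had normalised counts of 349, 581, 736 and 547 in GFP- replicates 1 to 4 and 1280.3, 700.4, 1010.2 and 519 in GFP+ replicates 1 to 4. GFP+ replicates 1 and 3 exceeded all GFP- libraries, and the other two did not. The fitted log2 fold change of Dusp10 was 0.68 (95% interval 0.05 to 1.31, SE 0.32), and its DESeq2 adjusted p was 0.189. Dusp16 (ENSMUSG00000030203, chromosome 6, 134715468 to 134792625, minus strand) had normalised counts of 1029.7, 710.2, 934 and 638 in GFP- replicates 1 to 4 and 865, 750.2, 885 and 672 in GFP+ replicates 1 to 4. All GFP+ values lay within the GFP- range, and the log2 fold change was -0.05 (95% interval -0.47 to 0.37, SE 0.22), with a DESeq2 adjusted p of 0.943.

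Dusp14 (ENSMUSG00000018648, chromosome 11, 84048041 to 84069261, minus strand) encodes a small phosphatase without the domain by which larger members bind MAP kinases, and it was the least abundant member. It had 40, 7, 2 and 21 reads in GFP- replicates 1 to 4 and 0, 32, 50 and 30 reads in GFP+ replicates 1 to 4. The 0 reads of GFP+ replicate 1 allow up to 4.17 normalised counts (3 reads, counting error only). The groups overlapped, and with a log2 fold change of -0.56 (95% interval -2.76 to 1.64, SE 1.12) and a DESeq2 adjusted p of 0.855, no difference was detectable at this depth.

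All 3 Sprouty genes were higher in each GFP+ than in each GFP- library, but Spry1 alone was called in the main fit. With the replicate number as a block, Spry1, Spry2 and Spry4 were all called (DESeq2 adjusted p = 0.0105, 0.0319 and 0.0408). Spry1 (ENSMUSG00000037211, chromosome 3, 37639947 to 37644598, plus strand) had normalised counts of 113, 89.6, 154 and 175 in GFP- replicates 1 to 4 and 214, 265, 201 and 466 in GFP+ replicates 1 to 4. GFP+ replicate 4 stood above the other GFP+ libraries, which lay close together. The mean rose from 133 ± 38.7 (SD, n = 4) to 286 ± 123 (SD, n = 4), at a fitted log2 fold change of 1.13 (95% interval 0.40 to 1.87, SE 0.37) and a DESeq2 adjusted p of 0.0306. The edgeR adjusted p was 0.0956. The DESeq2 call was lost without replicate 1 or 2 of GFP- (adjusted p = 0.0897 and 0.145) and without replicate 2 or 4 of GFP+ (0.0699 and 0.189). Gm42922 is annotated on the opposite strand at this locus, and the counting used strand.

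Spry2 (ENSMUSG00000022114, chromosome 14, 105891947 to 105896819, minus strand) was the most abundant Sprouty gene. Its normalised counts were 1309, 1252, 1044 and 949 in GFP- replicates 1 to 4 and 2533, 1358, 2060.4 and 1314 in GFP+ replicates 1 to 4. GFP+ replicates 2 and 4 lay just above the highest GFP- library. The log2 fold change was 0.67 (95% interval 0.18 to 1.16, SE 0.25), and its DESeq2 adjusted p was 0.0725. The gene passed when either GFP+ replicate 2 or GFP+ replicate 4 was left out (adjusted p = 0.0375 and 0.0250).

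Spry4 (ENSMUSG00000024427, chromosome 18, 38586247 to 38601415, minus strand) had normalised counts of 69.2, 140.5, 165 and 209 in GFP- replicates 1 to 4 and 226, 299, 353 and 245 in GFP+ replicates 1 to 4. The lowest GFP+ library was close to the highest GFP- library, replicate 4. The log2 fold change was 0.96 (95% interval 0.25 to 1.66, SE 0.36), and its DESeq2 adjusted p was 0.0732, or 0.0212 without GFP- replicate 4. Among the Sprouty genes, tested with the same limit on the adjusted p, the log2 ratio of Spry1 to Spry2 differed between groups by 0.44 (exact p = 0.429, adjusted 0.643), that of Spry1 to Spry4 by 0.04 (exact p = 0.886, adjusted 0.886) and that of Spry2 to Spry4 by -0.40 (exact p = 0.543, adjusted 0.651). Spry3, the remaining Sprouty gene, had 0 reads in every library.

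**Figure D2:**
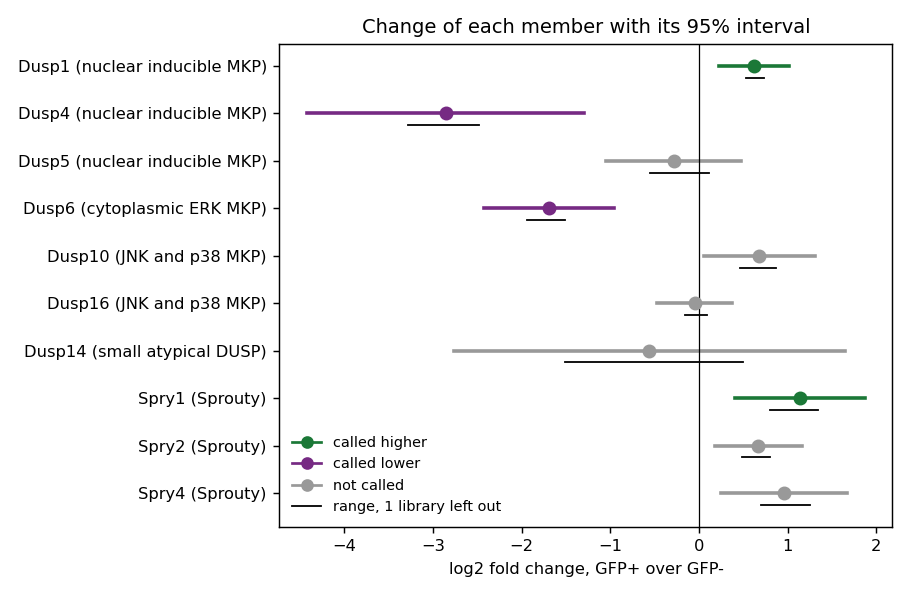
Log2 fold change of each member, GFP+ over GFP- (x axis), with its 95% interval (colored line) and the range over the 8 fits that each left out 1 library (thin black line). Dusp4 and Dusp6 stayed below 0 throughout (-3.28 to -2.48 and -1.94 to -1.51), and Dusp1 and Spry1 above 0, whereas the ranges of Dusp5, Dusp16 and Dusp14 crossed 0. With size factors from fibroblast markers, not plotted, Dusp1, Dusp10, Spry2 and Spry4 turned below 0.

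Levels of different genes were compared as normalised counts per kilobase of exon. In GFP- cells Dusp1 had the highest level (1542 ± 260.2 per kilobase, SD, n = 4), followed by Spry2 (545 ± 81.6), without overlap between them. Dusp4 (268), Dusp6 (197), Dusp10 (182), Dusp5 (171) and Dusp16 (106) came next and each overlapped its neighbor in this order, above Spry1 (45.7), Spry4 (30.7) and Dusp14 (11.9), which overlapped in turn. In GFP+ cells Dusp1 (2369 ± 484) and Spry2 (870.4 ± 281) again led, followed by Dusp10 (288), Dusp5 (135), Dusp16 (102), Spry1 (98.5), Dusp6 (62.2), Spry4 (59.1), Dusp4 (36.9) and Dusp14 (7.95), each overlapping its neighbor from Dusp10 on. Dusp4 thus took the third place in GFP- and the ninth in GFP+ cells. With the longest transcript as the length, Dusp1 stood at 2207 per kilobase in GFP- and 3391 in GFP+ cells and Dusp16 at 162 and 155, which in GFP+ cells placed Dusp16 above Dusp5 (135).

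**Figure D3:**
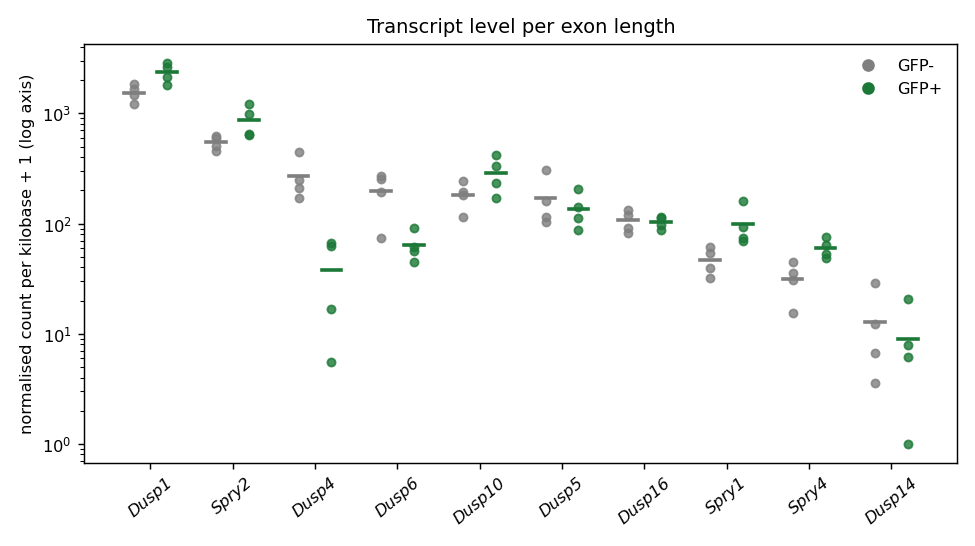
Normalised count per kilobase of exon plus 1 (log y axis) for the 10 members, ordered by their mean in GFP- libraries (gray), beside GFP+ libraries (green), with points for the 4 libraries and lines for the mean. Dusp1 and Spry2 lead in both groups, and Dusp4 and Dusp6 drop in rank in GFP+ cells.

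Melanocyte transcripts, like Dusp4 and Dusp6, were lower in GFP+ cells. All 10 genes of a melanocyte list (Mlana, Pmel, Tyr and others) were called lower in GFP+ cells, with a median log2 fold change of -2.99, and none was at 0. Their summed normalised counts were 56717, 51879.6, 27611 and 82192 in GFP- replicates 1 to 4 and 5781, 8964, 6351 and 14245 in GFP+ replicates 1 to 4, which is 0.285% to 0.892% and 0.0474% to 0.134% of all counts. The GFP- library with the highest sum, replicate 4, also had the most Dusp4, and that with the lowest, replicate 3, the least Dusp6. GFP- replicate 1, second in the sum, had the least Dusp4 and the most Dusp6 of its group. Among GFP+ libraries Dusp4 had the same order as the melanocyte sum, lowest in replicate 1 and highest in replicate 4, whereas Dusp6 was lowest in replicate 2, second in the sum.

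Per 1000 melanocyte counts, Dusp4 came to 8.28, 13.1, 20.7 and 14.7 in GFP- replicates 1 to 4 and 2.16, 18.9, 6.77 and 12.6 in GFP+ replicates 1 to 4, with overlap between the groups. On the same scale Dusp6 came to 15.0, 11.7, 8.36 and 9.54 in GFP- and 29.8, 15.2, 29.5 and 19.9 in GFP+ libraries. The melanocyte sum was lower in each GFP+ library, so this scale raises any gene that fell less than that sum. Dusp1, for example, came to 49.3 to 198 in GFP- and 421 to 1642 in GFP+ libraries. The higher Dusp6 on this scale is therefore not particular to Dusp6. The part of melanocyte transcripts in the lower Dusp4 and Dusp6 was not tested, and in bulk samples fewer cells of a type and less RNA per cell cannot be told apart.

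Other lists were higher in GFP+ cells. The 8 fibroblast markers summed to 253552 to 559288 normalised counts in GFP- and 666226 to 764372 in GFP+ libraries, and 6 were called higher by DESeq2 and 5 by edgeR. Scaled to these 8 markers, a choice made after seeing the data, the median log2 fold change of all tested genes became -0.95, and that of Dusp1 became -0.30, of Dusp10 -0.31, of Spry2 -0.27 and of Spry4 -0.07, below 0 but above that median. On this scale Spry1 was at 0.16 and Dusp4 and Dusp6 were at -3.79 and -2.64, the latter 2 still called.

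Of immediate early genes, which cells induce within minutes of stimulation or handling, 13 of 20 were called higher and 0 lower by DESeq2 (median log2 fold change 0.60), and 7 were called higher by edgeR. Fos rose by 0.70 and Egr1 by 0.68 on the log2 scale (DESeq2 adjusted p = 3.8e-08 and 0.00018). The list summed to 113538, 113288, 121926 and 108636 normalised counts in GFP- replicates 1 to 4 and 204073, 163012, 192306 and 160081 in GFP+ replicates 1 to 4. GFP+ replicates 1 and 3, the highest in this sum, were also the highest in Dusp1, Spry2 and Dusp10. Spry1 did not follow this order, with its highest GFP+ value in replicate 4, where the sum was lowest, and Spry4 had its lowest GFP+ value in replicate 1, where the sum was highest. In GFP- libraries the sum was highest in replicate 3, as was Dusp10, whereas Dusp1 and Spry2 were highest in replicate 1. Dusp1 and Spry2 were lowest in replicate 4, as was the sum, whereas Dusp10 was lowest in replicate 1. GFP+ replicates 1 and 3 also had the lowest melanocyte sums of their group (5781 and 6351). Of 8 heat shock genes, Dnajb1 alone was called, with a log2 fold change of 0.68, and their sums overlapped between the groups (16239 to 20808 in GFP- and 17052 to 17722 in GFP+). Dusp1 was not in the list of 20, and the part of this wider difference in the values of Dusp1, Spry2 and Dusp10 was not tested.

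**Figure D4:**
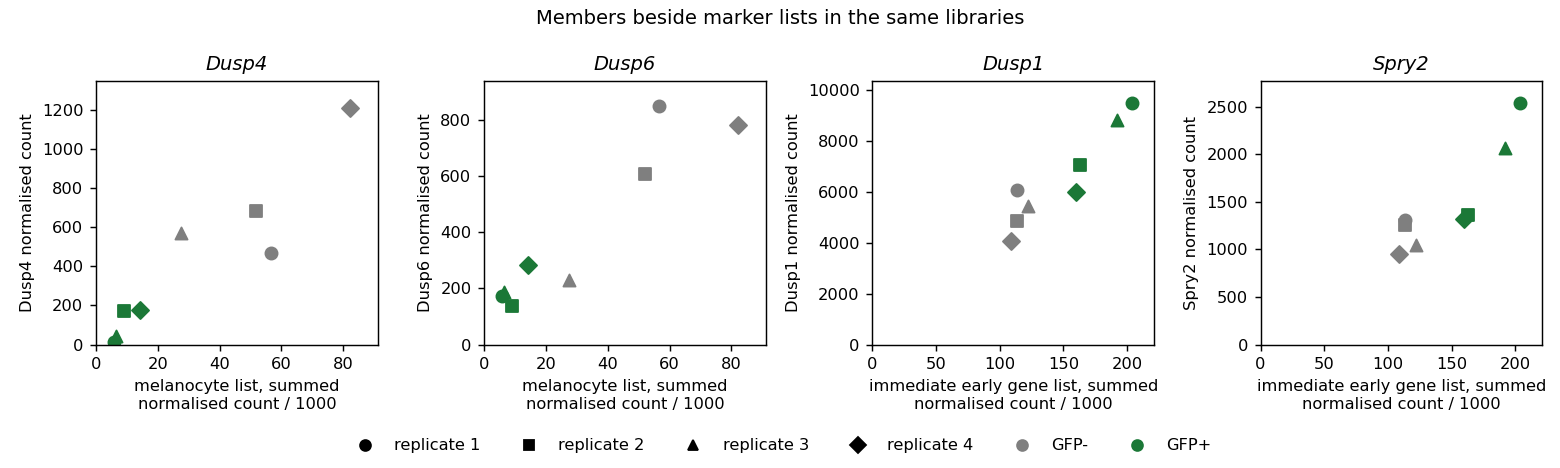
Normalised counts of Dusp4 and Dusp6 against the summed counts of 10 melanocyte genes, and of Dusp1 and Spry2 against those of 20 immediate early genes (x axes divided by 1000, all axes linear from 0), 1 point for each library. The GFP+ libraries lie at the low end of the melanocyte sum, and of Dusp4 and Dusp6 apart from GFP- replicate 3 for Dusp6, and Dusp1 and Spry2 are highest in GFP+ replicates 1 and 3.

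Markers of other cells that the gate should remove were counted in the same way. Of 9 tested leukocyte genes 0 were called by DESeq2 and by edgeR (0 at an unadjusted DESeq2 p under 0.05), and their sums, 634 to 4681 in GFP- and 645 to 3628 in GFP+ libraries, overlapped. GFP- replicate 3, where Dusp5 and Dusp10 had their highest GFP- values, had the highest leukocyte sum of its group. In GFP+ libraries the sum was highest in replicate 2, as was Dusp5, whereas Dusp10 was highest in replicate 1, where the sum was 869. Of 6 endothelial genes Vwf was called lower, of 6 pericyte genes Abcc9 was called higher (by DESeq2 and not by edgeR) and Mcam lower, and of 2 keratinocyte genes 0 were called by either tool (0 at an unadjusted DESeq2 p under 0.05). The part of these cells in the members' values was not tested.

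The other genes of the pathway were then counted. Of 3 further MAP kinase phosphatases that were tested (Dusp2, Dusp7 and Dusp8) none was called by either tool (0 at an unadjusted DESeq2 p under 0.05), with log2 fold changes of -0.99 to 0.11. Of 8 further atypical phosphatases Dusp18 was called lower, from 157 to 372 normalised counts in GFP- to 107 to 151 in GFP+ libraries (DESeq2 adjusted p = 0.0470, edgeR adjusted p = 0.155). Of 11 further ERK feedback inhibitors 0 were called by DESeq2 and by edgeR (1 at an unadjusted DESeq2 p under 0.05), among them Errfi1, an inhibitor of the EGF receptor (log2 fold change 0.49 ± 0.28 SE, adjusted p = 0.314), and Spred1, a Sprouty-related inhibitor of Ras signaling (0.31 ± 0.16 SE, adjusted p = 0.246).

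Among 15 receptor tyrosine kinases 4 were called higher and 2 lower by DESeq2, and 3 higher and 2 lower by edgeR. Pdgfra, also a marker of the sort, and Ntrk2, a neurotrophin receptor, were higher by 1.32 and 1.48 on the log2 scale (DESeq2 adjusted p = 1.9e-12 and 2.3e-05). Met, the receptor of hepatocyte growth factor, and Erbb3, a neuregulin receptor, had log2 fold changes of -2.29 and -2.79 (DESeq2 adjusted p = 1.0e-10 and 3.5e-05), beside the median of -2.99 for the 10 melanocyte genes, whose part in these values was not tested. Of 19 genes of the Ras to ERK cascade 2 were called higher (the adaptor Shc1, 0.64, and the scaffold Ksr1, 0.96) and 1 lower (Hras, -0.98) by DESeq2, and edgeR called Ksr1 and Hras but not Shc1 (edgeR adjusted p = 0.0986). Of 17 genes of the JNK and p38 cascade 0 were called by DESeq2 and by edgeR (1 at an unadjusted DESeq2 p under 0.05).

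Of 12 transcripts that ERK activity induces, 4 were called higher and 0 lower by DESeq2. These were Fos, Egr1, Fosl1, an AP-1 subunit (log2 fold change 0.74, DESeq2 adjusted p = 0.0191), and Myc, a growth regulator (0.69, adjusted p = 0.0175), and edgeR called 3 of them, all but Fosl1 (edgeR adjusted p = 0.0515). Over the 12 genes the log2 fold changes ran from -1.62 to 1.66, and Ccnd1, which encodes cyclin D, was at -0.94 (DESeq2 adjusted p = 0.0645).

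**Figure D5:**
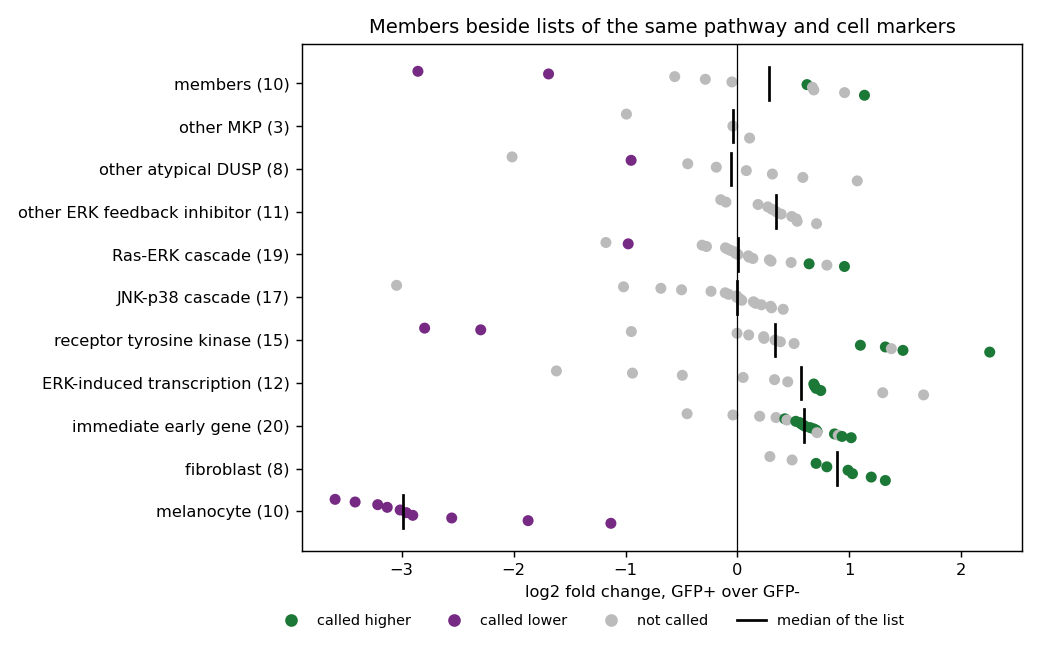
Log2 fold change, GFP+ over GFP- (x axis), of every tested gene in 11 lists, with the number tested in parentheses, green and purple points for genes called higher and lower, gray points for genes not called, and a black line at the median of each list. Members lie on both sides of 0 (-2.85 to 1.13), the melanocyte genes all lie below 0 and the fibroblast genes all above it.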

How the data were processed

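RNA from 8 libraries (4 GFP+ and 4 GFP-, grouped by their labels) had been made into strand-specific total RNA libraries with a low-input kit. The authors trimmed adapters with cutadapt 3.4, mapped reads to GRCm38 with STAR 2.7.3a and counted them by strand with featureCounts 2.0.1. The values used here are the deposited raw counts per gene and library. The same table holds the authors' normalised values, fold changes and p-values, which were not used. Per-sample count columns left unused: 0.

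All 29043 genes with at least 1 read were fitted in R 4.3.3 with DESeq2 1.42.0 (group as the only term, default size factors, independent filtering, two-sided Wald test, Benjamini-Hochberg adjustment). Alternatives were edgeR 4.0.16 quasi-likelihood, limma 3.58.1 voom, TMM factors, size factors from abundant genes (mean raw count 100 or more), a filter at a mean raw count of 10, DESeq2 without independent filtering or without its Cook's distance filter, the replicate number as a block, each library left out, and pseudocounts of 0.1 and 10 for ratios. Size factors from 8 fibroblast markers were added after seeing the data. A 95% interval is the estimate ± 1.96 SE. Normalised counts rest on 883144 to 31666734 reads a library, which were not collapsed by molecular identifier.

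The members and lists were chosen with earlier results of these data known. All members are described; of each pathway list at most the 4 genes with the smallest p are named, and marker lists are given as counts and sums. Named genes beyond these were chosen after their values were seen. Coordinates are those of GENCODE M21 (99.82% of identifiers found); upstream sequences are from RefSeq. On simulated counts of 25446 genes for this comparison, DESeq2 recovered 37 of 100 genes changed by a log2 fold change of 1 and 76 of 100 changed by 2, with 53 false calls; edgeR recovered 16 and 60, with 2 false calls. Replicates of a group differed by more than counting noise (lowest chi-square per degree of freedom 9.68).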

Additional observations from a re-analysis of the deposited data

How the results depend on the processing

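Dusp4 and Dusp6 kept their direction and their call under all 17 alternatives. Dusp1 was no longer called with edgeR (log2 fold change 0.63) or without independent filtering (0.62), and Spry1 with edgeR (1.14), voom (1.22), no independent filtering (1.13) or fibroblast-marker size factors (0.16). The fibroblast-marker size factors reversed Dusp1 (-0.30), Dusp10 (-0.31), Spry2 (-0.27) and Spry4 (-0.075) and brought a call for Dusp5 (-1.20) and Dusp16 (-0.96). Voom reversed the uncalled Dusp5 (0.12) and Dusp16 (0.040), and TMM factors brought a call for Spry2 (0.67, DESeq2 adjusted p = 0.0493). The fibroblast-marker size factors moved the median of all tested genes from -0.0082 to -0.95, and the members moved with it. The cause of the other changes was not tested.

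Genes called numbered 1439 (712 higher, 727 lower), 732 with edgeR (405 and 327) and 6996 with fibroblast-marker size factors (84 and 6912). Members called numbered 4, and 2 with edgeR or without independent filtering (0 higher in both); 1 was called higher with voom, and 0 higher and 4 lower with fibroblast-marker size factors. With each library left out in turn, 969 to 1837 genes were called, 460 to 937 higher and 469 to 900 lower, and 2 to 4 members, of them 0 to 2 higher. The log2 fold change then ran from 0.53 to 0.73 for Dusp1, -0.55 to 0.11 for Dusp5, -0.16 to 0.091 for Dusp16, -1.51 to 0.49 for Dusp14, 0.80 to 1.35 for Spry1, 0.48 to 0.80 for Spry2 and 0.70 to 1.25 for Spry4. The difference between groups in the log2 ratio ran from 1.89 to 2.62 for Dusp1 to Dusp6, -2.46 to -1.12 for Dusp4 to Dusp6 (the latter without GFP+ replicate 1), 0.91 to 2.03 for Dusp5 to Dusp6 (the latter without GFP- replicate 3), 0.037 to 0.73 for Spry1 to Spry2 (without GFP+ replicate 4 and GFP+ replicate 1), -0.28 to 0.30 for Spry1 to Spry4 (without GFP+ replicate 4 and GFP+ replicate 3) and -0.69 to -0.0055 for Spry2 to Spry4 (without GFP- replicate 4 and GFP- replicate 1).

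Libraries of replicate numbers 1 and 4 deviated together and those of 2 and 3 did not (r = 0.18, -0.12, -0.12 and 0.23 over 15283 genes). The labels do not say whether a number marks a shared tumor, and the main fit did not treat the libraries as paired. These correlations include the shallow GFP- replicate 3 and cannot show that the libraries are unpaired. With the replicate number as a block 1492 genes and 6 members were called, 4 of them higher, as Spry2 (0.62, DESeq2 adjusted p = 0.0319) and Spry4 (1.01, adjusted p = 0.0408) passed. Dusp1 (0.61, DESeq2 adjusted p = 2.1e-05) and Spry1 (1.13, adjusted p = 0.0105) were called in that fit too. Replicates 1 and 4 correlated best with their own number, whereas GFP- replicate 2 did so with GFP+ replicate 3 (r = 0.14) and GFP- replicate 3 with GFP+ replicate 2 (r = 0.20).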
